A study of Mus musculus with 6 samples.

Results

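The clustered protocadherins were examined in ATAC-seq peak lists of mouse preadipocytes. The set comprised the 57 protein-coding genes of chromosome 18 whose symbols start with Pcdha, Pcdhb or Pcdhg followed by a digit, a, b or c, out of 21755 protein-coding genes of the autosomes and chromosome X (GENCODE M21, mm10). It was made up of 12 Pcdha genes, 22 Pcdhb genes, 12 Pcdhga genes, 6 Pcdhgb genes and the 5 C-type genes Pcdhac1, Pcdhac2, Pcdhgc3, Pcdhgc4 and Pcdhgc5. All 57 genes lay on the plus strand between positions 36930184 and 37841873. The region examined added 50 kb on either side (chr18:36880184-37891873). Pcdhgb8 is annotated as a polymorphic pseudogene and was not a member, and the annotation gives the symbol Pcdha11 to a pair of genes, written here with their Ensembl numbers.

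ATAC-seq inserts sequencing adapters into open chromatin with the transposase Tn5, and was carried out by the authors on preadipocytes of inguinal white adipose tissue (iWAT) at day 0, before differentiation. The 3 WT libraries came from wild type C57BL/6 mice and the 3 DKO libraries from C57BL/6 mice lacking both Hmgn1 and Hmgn2, which encode nucleosome binding proteins. The strain is given here as labelled, and the study lists the DKO mice as a congenic B6.Cg strain. Per the study's methods the mice were 8 to 12 weeks old and both genes were absent from the whole animal, and the sources used here do not say whether animals were pooled. Neither the labels nor the study's methods for ATAC-seq say whether replicates came from separate cultures, so the p-values below measure the spread between these libraries, which may be technical.

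Protocadherins are cadherin-like adhesion proteins of the cell surface, and the clustered genes are best known in neurons, where each cell uses a different combination of them and the proteins bind their own kind on neighbouring cells. Each Pcdha and Pcdhg gene has a large variable first exon with its own promoter, which is spliced to constant exons shared by all genes of the Pcdha or of the Pcdhg part, while a Pcdhb gene has no constant exons. The factor CTCF and cohesin are known to bring variable promoters into contact with distal enhancers, and the C-type genes are known for a less variable use than the others. The comparison asked which of these promoters lay in open chromatin in preadipocytes, and whether the choice differed between WT and DKO.

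A summit is the highest point of a peak in the list of a library. A gene was called listed in a library when a summit lay within 1 kb of its 5′ end. Fold enrichment, as given by the authors' peak caller, is the pileup of cut sites at the summit over the background around it in the same library, with 1 added to both, so that the ratios of low pileups are pulled towards 1. The lists ended after about 300000 summits, at a −log10 p of 4.33, 3.63 and 5.63 in WT replicates 1 to 3 and of 4.10, 4.17 and 3.54 in DKO replicates 1 to 3. The lowest pileup in a list was 10, 10 and 12 in WT and 10, 10 and 8 in DKO, so that a weak promoter had to pass a higher limit in WT replicate 3 than in DKO replicate 3. A gene that is not listed is below that limit and need not be closed. Read totals were not analysed here, and the background level, used as a measure of depth, was 2.41 to 2.51 cut sites in WT and 2.58, 2.53 and 2.05 in DKO. DKO replicate 3 was thus the shallowest library.

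The labels were checked at the promoters of marker genes. Of 8 preadipocyte and stromal markers, 5 (Pdgfra, Pdgfrb, Cd34, Thy1 and Dpp4) were listed in all 6 libraries, Dlk1 in 5, Ly6a in 3 and Pi16 in none. The neuronal markers Snap25 and Tubb3 were listed in all 6 libraries and Syt1 in 5, whereas Rbfox3 was listed in none. Sox10, a marker of Schwann cells and other glia, and Krt5, a marker of epithelium, were also listed in none. Among immune markers Cd68 was listed in all 6 libraries and Ptprc in 1. Of the endothelial markers Pecam1, Tek and Kdr were listed in all 6 libraries. Cdh5, the cadherin of endothelial cells, was listed at 3.91, 7.09 and 4.26 in DKO and in no WT library (log2 change 1.76 ± 0.37, adjusted p = 0.142 by limma, against WT values that are all list ends). The summed fold enrichment of the 4 neuronal markers was 12.3 to 24.5 in WT and 18.5 to 21.0 in DKO, and that of the 5 glial markers was 39.0 to 49.3 in WT and 29.7 to 37.2 in DKO. Those of the 5 immune markers were 5.38 to 8.29 in WT and 9.38 to 9.85 in DKO, and those of the 4 endothelial markers 33.3 to 42.1 in WT and 33.5 to 40.3 in DKO. The glial sums were lower and the immune sums higher in every DKO library than in WT, without overlap, and their part in the results below was not tested. The promoter of Hmgn2 was listed in 3 WT libraries, with pileups of 42, 39 and 52 cut sites, and in no DKO library, whose lists ended at 10, 10 and 8. The promoter of Hmgn1 was listed in all 6 libraries (log2 change 0.14, adjusted p = 0.706).

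Most clustered protocadherin promoters were weakly accessible, and few of them were listed in every library. Of the 57 genes, 13 (22.8%) were listed in all 6 libraries, compared with 57.6% of all protein-coding genes. No summit was listed at 18 genes (31.6%), a share close to the 31.7% of all protein-coding genes. The remaining 26 genes (45.6%) were listed in 1 to 5 libraries, compared with 10.7% of all protein-coding genes. For comparison, 9 of 12 protocadherin genes outside the clusters were listed in all 6 libraries, and only Pcdh12 and Pcdh15 of these were listed in none.

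The density of summits varied along the cluster. The stretch from Pcdha1 to Pcdha12 (chr18:36929184-37021149) held 1, 0 and 2 summits in WT and 2, 0 and 3 in DKO, or 1.45 summits per 100 kb on average. The stretch from Pcdhb4 to Pcdhb12 (chr18:37306455-37438654), 132 kb long, held no summit in any library. The genome as a whole held 11.4 summits per 100 kb. Summits returned from Pcdhb13 to Pcdhb22 (12.7 per 100 kb), rose to 26.8 per 100 kb over the starts of the Pcdhga and Pcdhgb genes, and reached 73.7 per 100 kb around the starts of Pcdhgc3 to Pcdhgc5.

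**Figure D1:**
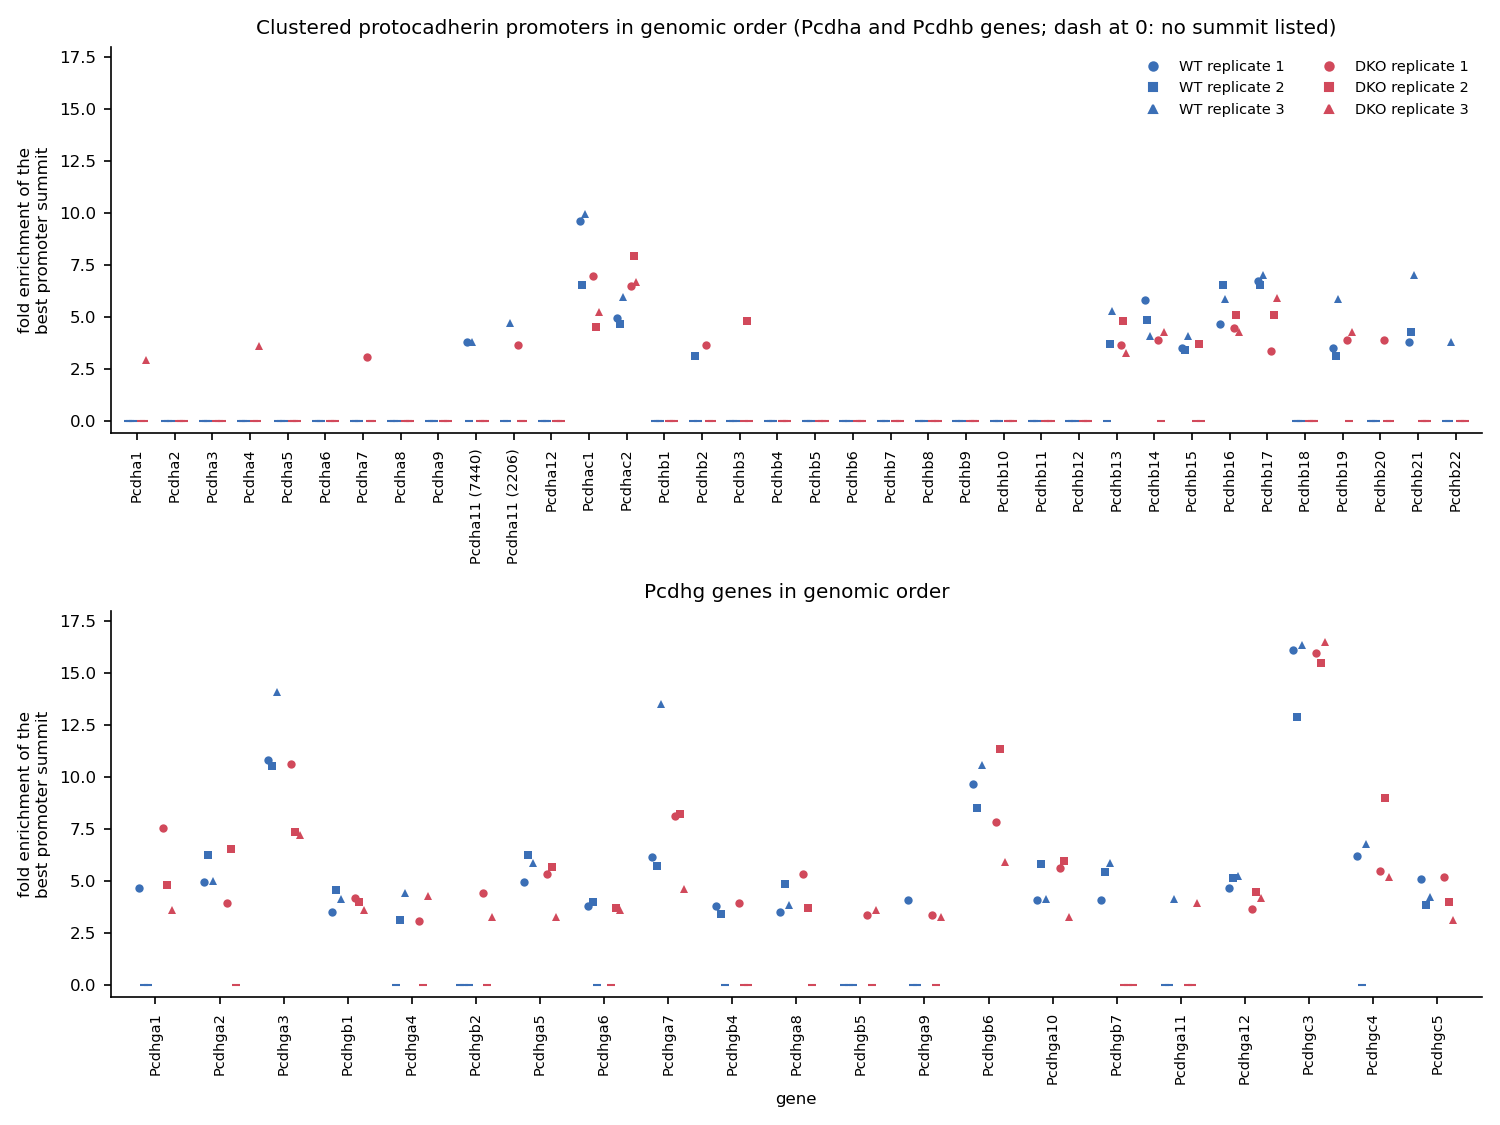
Fold enrichment of the best summit within 1 kb of each of the 57 start sites, in genomic order, with 1 point for each of 3 WT (blue) and 3 DKO (red) libraries and a dash at 0 where no summit was listed. Pcdha1 to Pcdha12 and Pcdhb4 to Pcdhb12 are almost empty, and Pcdhgc3 is the highest promoter, at 12.9 to 16.5 in the 6 libraries.

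The C-type genes were the most accessible group, with 4 of 5 promoters listed in all 6 libraries and Pcdhgc4 in 5. At Pcdhgc3, the first C-type gene of the Pcdhg part (chr18:37806364-37841873), fold enrichment was 16.1, 12.9 and 16.3 in WT and 15.9, 15.5 and 16.5 in DKO. The values of the genotypes overlapped. The mean of 15.5 lay at the 67.4 percentile of protein-coding promoters listed in all 6 libraries, and the other 12 members listed everywhere lay at the 37.1 percentile or lower. In rank by p, where 100 is the best summit of a list, Pcdhgc3 lay between 95.4 and 98.3. No other member was among the 50000 best summits of every library.

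The remaining C-type promoters were lower. At Pcdhac1, the first C-type gene of the Pcdha part (chr18:37090013-37187657), fold enrichment was 9.64, 6.55 and 9.98 in WT and 6.99, 4.53 and 5.24 in DKO. DKO replicate 1 lay above WT replicate 2, and the other DKO libraries lay below all WT libraries. At Pcdhac2 (chr18:37143503-37187657) the highest window was centred not at the 5′ end but at +429 bp, inside the variable exon. Fold enrichment there was 4.96, 4.67 and 5.63 in WT and 6.51, 7.94 and 6.70 in DKO. All DKO values lay above all WT values, and the window was named for such a change without overlap. A second window at −372 bp was listed in WT replicates 1 (3.48) and 2 (3.72) and in no DKO library.

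Pcdhgc4 (chr18:37815079-37841873) was listed at 6.18 and 6.76 in WT replicates 1 and 3, no summit in WT replicate 2, and 5.45, 8.99 and 5.16 in DKO. Pcdhgc5 (chr18:37819513-37841873) had 5.07, 3.81 and 4.22 in WT and 5.19, 3.96 and 3.13 in DKO. Both genotypes overlapped at these genes. The values of Pcdhgc3, Pcdhgc4 and Pcdhgc5 were measured against a raised local background, which was 4.23 to 9.72 cut sites there and 2.05 to 3.15 at the other 36 promoters with a summit. The median pileup was 144.5 cut sites at Pcdhgc3, 38 at Pcdhgc4, 29 at Pcdhgc5 and 36 at Pcdhga3. Pcdhgc4, with a lower fold enrichment than Pcdhga3, thus had a similar number of cut sites, and the order of the promoters depends on this division.

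In the Pcdhga and Pcdhgb groups every gene was listed in at least 2 libraries. Of 12 Pcdhga genes 5 were listed in all 6 libraries, and of 6 Pcdhgb genes 2. Pcdhga3 (chr18:37674307-37841873) was the highest, at 10.8, 10.5 and 14.1 in WT and 10.6, 7.37 and 7.21 in DKO. Pcdhgb6 (chr18:37742094-37841873) followed, at 9.64, 8.51 and 10.6 in WT and 7.83, 11.3 and 5.90 in DKO. The genotypes overlapped at both genes.

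At Pcdhga7 the WT libraries gave 6.13, 5.69 and 13.5 and the DKO libraries 8.11, 8.22 and 4.59, with WT replicate 3 far above the rest. Pcdhga5 had 4.96, 6.26 and 5.87 in WT and 5.31, 5.67 and 3.28 in DKO. Pcdhgb1 had 3.50, 4.55 and 4.11 in WT and 4.19, 3.97 and 3.60 in DKO. At all 3 genes the values of the genotypes overlapped. The lowest members of these groups were Pcdhga11, listed in WT replicate 3 (4.11) and DKO replicate 3 (3.93), and Pcdhgb5, listed in DKO replicates 1 (3.35) and 3 (3.60).

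Pcdhgb8, which lies among these genes and was singled out after its values were seen, reached 6.72, 9.69 and 9.19 in the WT libraries and 7.38, 9.64 and 8.80 in the DKO libraries. It would have ranked with the higher Pcdhg promoters.

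Of the 22 Pcdhb genes, 2 were listed in all 6 libraries and 11 in none, among them Pcdhb1, Pcdhb18 and all of Pcdhb4 to Pcdhb12. Pcdhb17 (chr18:37484795-37489454) was the highest, at 6.72, 6.55 and 7.04 in WT and 3.35, 5.10 and 5.90 in DKO. At this best summit of the promoter all WT values of fold enrichment lay above all DKO values. In rank by p the genotypes overlapped, with DKO replicate 3 (61.4) above WT replicate 1 (57.9). Pcdhb16 had 4.67, 6.55 and 5.87 in WT and 4.47, 5.10 and 4.26 in DKO. Pcdhb14 had 5.84, 4.84 and 4.11 in WT, 3.91 in DKO replicate 1, 4.26 in DKO replicate 3 and no summit in DKO replicate 2. The values of the genotypes overlapped at Pcdhb16 and Pcdhb14.

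None of the 12 Pcdha genes was listed in all libraries, and 7 were listed in none, Pcdha12 among them. Pcdha11 (ENSMUSG00000102206) was listed in WT replicate 3 (4.70) and DKO replicate 1 (3.63), at +4 bp. Pcdha11 (ENSMUSG00000007440) was listed in WT replicates 1 (3.80) and 3 (3.82), and Pcdha4 in DKO replicate 3 alone (3.60). At 12, 12 and 10 cut sites, the last 3 summits lay at or 2 cut sites above the end of their lists.

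The number of listed members was 26, 25 and 27 in WT and 29, 21 and 26 in DKO (26 ± 1 and 25.3 ± 4.04, SD, n = 3 each), and the groups overlapped. For Pcdhga genes the counts were 10, 9 and 9 in WT and 10, 9 and 10 in DKO. For Pcdhb genes they were 6, 8 and 8 in WT and 7, 5 and 5 in DKO (7.33 ± 1.15 and 5.67 ± 1.15), again with overlap. The median rank percentile of the 13 members listed everywhere was 53.0, 62.3 and 43.3 in WT and 64.0, 51.2 and 46.2 in DKO, also overlapping. When only summits above the highest list end were kept, 22, 19 and 27 members were listed in WT and 21, 18 and 14 in DKO, where the shallow DKO replicate 3 was the lowest. The region held 124, 129 and 119 summits in WT and 120, 110 and 108 in DKO (124 ± 5 and 113 ± 6.43). DKO replicate 1 lay above WT replicate 3, and the other DKO libraries lay below all WT libraries.

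**Figure D2:**
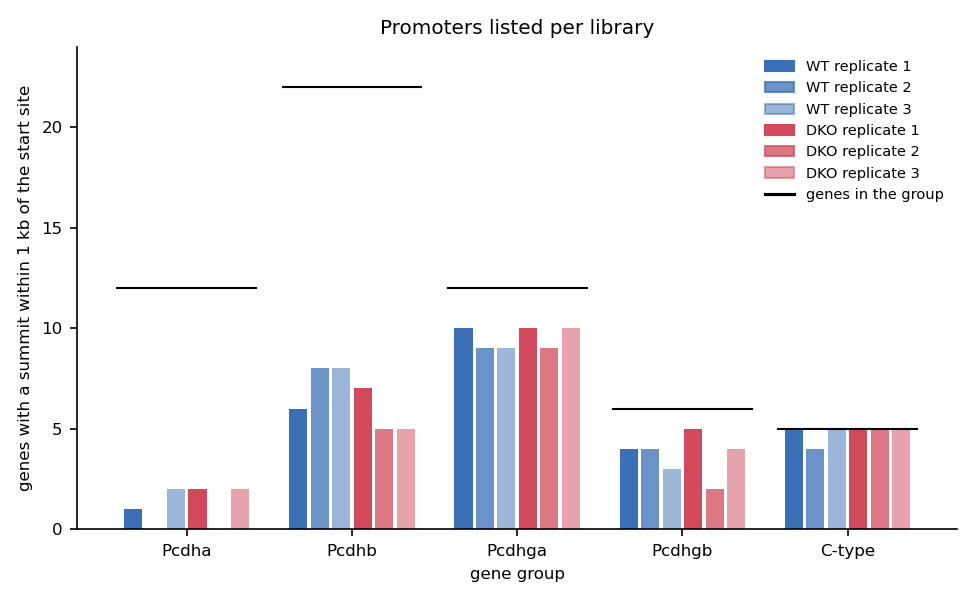
Number of genes with a summit within 1 kb of the start site, by gene group, in each of 3 WT (blue) and 3 DKO (red) libraries, with a line at the number of genes in the group. The bars of WT and DKO overlap in every group, and Pcdha stays at 0 to 2 of 12 genes.

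Summits sat close to the start sites. Within 1 kb of the 57 start sites lay 313 summits of the 6 libraries, of which 29.7% were within 50 bp of the start, compared with 13.5% at all protein-coding promoters. A second group, 21.7% of the summits, lay at +150 to +300 bp (12.3% at all promoters). Beyond +500 bp lay 7.67% of the summits of the members and 16.5% of those of all promoters. The share within 50 bp was 30.1% in WT and 29.3% in DKO. By group it ranged from 16.0% at the C-type genes to 43.9% at the Pcdhgb genes. These summits come from 39 genes that share 6 libraries, and the shares are a description without a test.

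**Figure D3:**
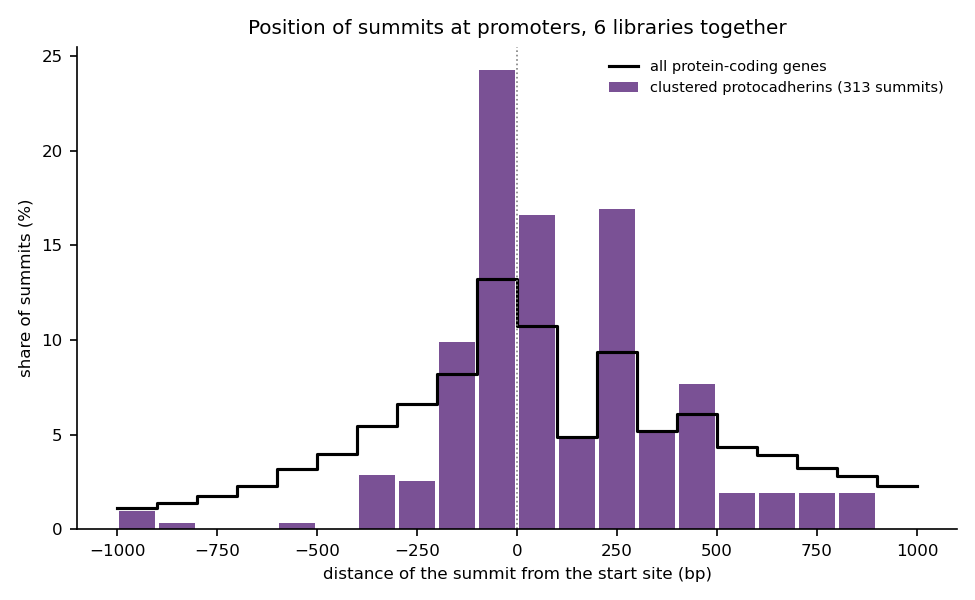
Share of summits by distance from the start site in bins of 100 bp, for the 313 summits of the clustered protocadherins (bars) and for all protein-coding genes (line), 6 libraries together. The bars exceed the line in the 100 bp on either side of the start, with 24.3% and 16.6% of the summits, and at +200 to +300 bp with 16.9%.

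The sequence around the starts differed in base composition. In the 250 bp on either side of the start, median GC content was 43.9% over the members and 57.1% over all protein-coding genes, and the ratio of observed to expected CpG was 0.537 and 0.591. Median GC content was 58.1% at the C-type genes, 48.3% at Pcdhgb, 45.7% at Pcdhga, 43.9% at Pcdha and 41.3% at Pcdhb genes. Across the 57 members GC content and mean fold enrichment had a Spearman rho of 0.445 (Pearson r 0.589), a description over genes that share libraries, and the rho with the CpG ratio was 0.011. Libraries without a summit entered this mean at the lowest fold enrichment of their list, so that the 18 genes listed nowhere were tied. The median CpG ratio was 0.659 at the rarely listed Pcdha genes. A median of 100% of the 50-mers around a start were unique in the genome, and the lowest share was 85.4%, at Pcdha5, so that most start sites could be told apart by reads of that length.

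The consensus of CTCF, searched on both strands in the 300 bp from 250 bp before to 50 bp after the start, was found at 0 of 57 members and at 0.561% of all protein-coding genes. In the wider interval of 1 kb on either side it was found at 6 of 57 members (10.5%) and at 1.73% of all protein-coding genes. All 6 were Pcdha genes (Pcdha1, Pcdha4, Pcdha6, Pcdha7, Pcdha8 and Pcdha12), and in every one of them the match lay at +543 to +587 bp, inside the annotated first exon. These genes have similar exons, so that the matches are not independent of each other. Few summits were listed there. Summits over the match were listed in DKO replicate 3 at Pcdha4, in a window at +539 bp with 10 cut sites, and in DKO replicate 1 at Pcdha7, in a window at +529 bp with 10 cut sites. Of the 75 windows of the region that were tested, 3 (4.00%) held the consensus within 100 bp of their centre, compared with 3.07% of all 179249 windows. A match is no measure of binding, and its absence says only that these letters are not in the interval searched.

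The accessibility of single windows was then compared between WT and DKO with limma on quantile-normalized log2 fold enrichment. Windows reached 250 bp to either side of a summit, and a library without a summit in a window was given the lowest fold enrichment of its list. The region held 93 windows, of which 75 passed the filter of a summit with a q under 0.01 in at least 2 libraries, and 37 had a summit in all 6 libraries. Of 57 members 32 had a tested window within 1 kb. No window of the region and no member window had an adjusted p under 0.05. Over the whole genome 0.0357% of 179249 windows were called lower and 0.0234% higher in DKO, 0.0591% in all. The smallest adjusted p of the region was 0.145. At an unadjusted p under 0.05 were 8 of 75 windows (11.8% of all windows), of which 5 were lower (6.1% of all windows) and 3 higher in DKO (5.68% of all windows). Among the member windows 4 of 32 had such a p, against 12% of promoter windows of all protein-coding genes. Without the mean-variance trend, limma called 2 windows lower (Pcdhb21 and Pcdhgb7, which had no DKO summit) and 1 higher, where that fit called 1.17% of all windows lower and 1.14% higher. A lack of calls does not show that the genotypes were alike.

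Of the member windows nearest to the start sites, which passed the filter and do not stand for all 57 members, 19 of 32 were lower and 13 higher in DKO, with a median log2 change of −0.09. Of the 32, 3 had no DKO summit and 3 had no WT summit. The nearest window was not always the highest of its promoter. At Pcdhac2 it was the window at −372 bp, with a log2 change of −0.83. That window passed the filter through WT libraries alone, its DKO values were all list ends, and with pileup the change was −0.19. At Pcdhb19 it was centred at +445 bp, with a log2 change of 1.01, while the WT summits of 3.50, 3.13 and 5.87 lay at −3, −1 and −3 bp outside it. With the highest window of each promoter, a choice made after seeing the data, 18 were lower and 14 higher, with a median of −0.04. Of all windows 48.6% were lower, with a median of 0.01, and of the promoter windows of all protein-coding genes 35.4%, with a median of 0.07. The median of the members turned to 0.04 without DKO replicate 3 and to 0.02 with pileup in place of fold enrichment.

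**Figure D4:**
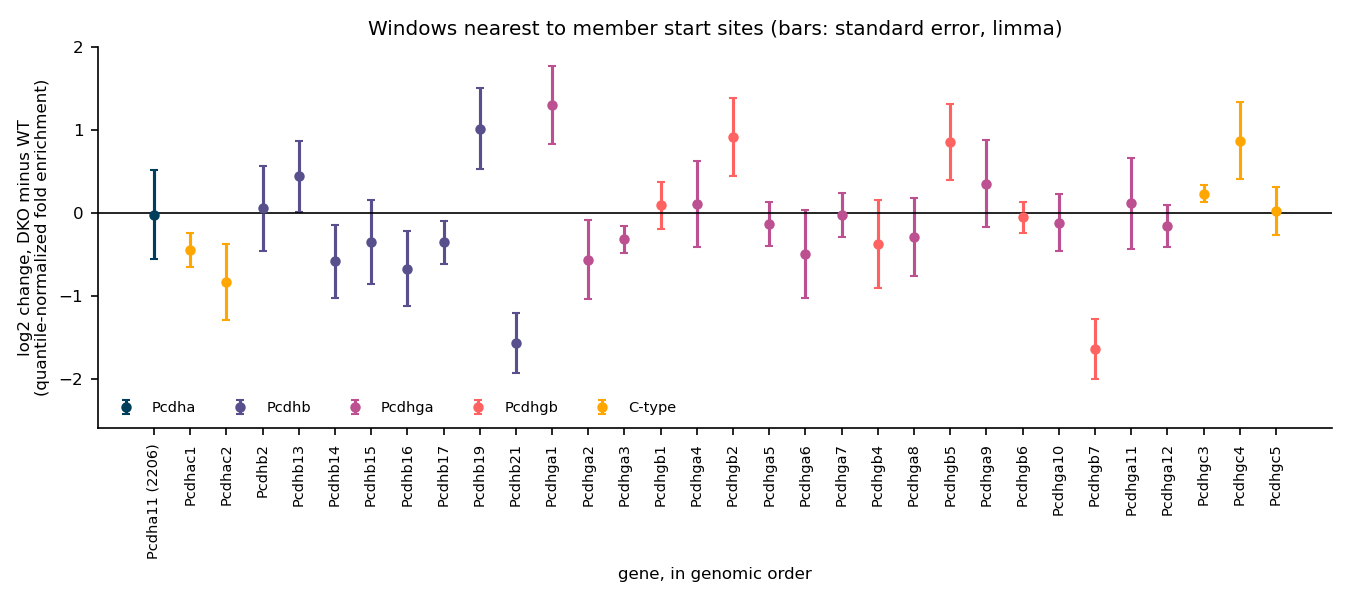
Log2 change of quantile-normalized fold enrichment (DKO minus WT) in the windows nearest to the start sites of 32 members, in genomic order, with the standard error from limma and colours for the gene groups. Pcdhb21 and Pcdhgb7 lie lowest, at −1.57 and −1.64, and had no DKO summit. Pcdhga1 lies highest, at 1.30, and had no summit in WT replicates 2 and 3. None of the 32 had an adjusted p under 0.05.

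The widest differences belonged to promoters listed in only some of the libraries. Pcdhb21 (chr18:37513621-37518325) was listed at 3.80, 4.27 and 7.04 in WT and had no summit in any DKO library. The log2 change was −1.57 ± 0.36 (SE) with an adjusted p of 0.154 by limma. Pcdhgb7 (chr18:37751600-37841873) had 4.09, 5.41 and 5.87 in WT and no summit in DKO, with a log2 change of −1.64 ± 0.36 and an adjusted p of 0.145 by limma. These were the only windows of the region listed in all 3 WT and no DKO library, 2 of 75, against 1.23% of all windows. Their number was 5 without WT replicate 3, 4 without DKO replicate 2, and 0 with the 50000 best summits or when a peak interval over 0.5 of the window counted as listed. Among the windows nearest to a start site and listed in fewer than 6 libraries they were 2 of 21 (9.52%) for the members, against 2.31% for all protein-coding genes, with no test of the difference. No window of the region was listed in all 3 DKO and no WT library (1.14% of all windows and 3.39% of those weak promoter windows). The WT pileups were 12, 14 and 23 cut sites at Pcdhb21 and 13, 18 and 19 at Pcdhgb7, where the DKO lists ended at 10, 10 and 8. The WT rank percentiles of Pcdhb21 and Pcdhgb7 ran from 17.5 to 54.3, so that some of these summits lay in the middle of their lists. Both windows were named for a change without overlap and passed the filter through the WT libraries alone. Their SE and adjusted p rest on DKO values that are all list ends. Against such limits a log2 change gives how far the WT summits stood above the DKO list ends, and no ratio of accessibility. With summit pileup in place of fold enrichment the log2 change was −0.53 at Pcdhb21 and −0.60 at Pcdhgb7.

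Pcdhga1 (chr18:37661793-37841873), singled out after its values were seen, ran the other way, with 4.67 in WT replicate 1, no summit in WT replicates 2 and 3, and 7.55, 4.82 and 3.60 in DKO. DKO replicate 3 lay below WT replicate 1, so that the genotypes overlapped. The log2 change was 1.30 ± 0.47 with an adjusted p of 0.306 by limma. Its values in WT replicates 2 and 3 are list ends, so that the log2 change is no ratio of accessibility. At Pcdhac1 the log2 change was −0.45 ± 0.20 (adjusted p = 0.423 by limma). In the Pcdhac2 window at +429 bp it was 0.65 ± 0.18 (adjusted p = 0.179 by limma). This window was named for a change without overlap, so that its separation and p are no test of a difference. At Pcdhgc3 the log2 change was 0.23 ± 0.11 (adjusted p = 0.428 by limma), where the DKO values lay above the WT values after quantile normalization but not before it. At Pcdhb17 all WT values lay above all DKO values before quantile normalization but not after it. The log2 change was −0.32 ± 0.16 at Pcdhga3 and −0.36 ± 0.26 at Pcdhb17, with adjusted p of 0.457 and 0.580 by limma. Single libraries moved these values. Without DKO replicate 2 the log2 change was −0.28 at Pcdhac1 and −0.20 at Pcdhga3. Without DKO replicate 1 it was −0.49 at Pcdhga3 and −0.10 at Pcdhb17, and without DKO replicate 3 it was −0.59 at Pcdhb17. The change at Pcdhgc3 fell to 0.09 with no scaling.

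After quantile normalization 6 of the 75 windows had all WT values above all DKO values and 3 the reverse, compared with 7.67% and 8.76% of all windows. One of the 6, singled out after its values were seen, lies between the Pcdha and Pcdhb genes at −46551 bp from the start of Pcdhb1 and 30730 bp from the nearest constant exon of the Pcdha genes (chr18:37218137-37218637). Its fold enrichment was 10.5, 7.97 and 15.3 in WT and 5.59, 7.37 and 4.92 in DKO, with a log2 change of −0.71 ± 0.18 and an adjusted p of 0.163 by limma. The neighbouring window at −47418 bp, which holds the CTCF consensus, was listed in WT replicates 1 (3.50) and 2 (3.13) only. A distal enhancer of the Pcdha genes is known to lie downstream of their constant exons, and whether these windows are that element was not examined. Accessible windows also lay inside the genes, away from the variable promoters, and those named here were singled out after their values were seen. The region had 13 windows in introns of members, 4 of them with a summit in every library. A window in the intron before the first Pcdha constant exon, 10775 bp after the start of Pcdhac2, reached 15.3, 11.2 and 15.4 in the WT libraries and 11.9, 11.3 and 10.8 in the DKO libraries. A window in an intron of the Pcdhg genes, 17265 bp after the start of Pcdhgc5, reached 12.6, 10.5 and 12.4 in the WT libraries and 9.78, 10.96 and 10.2 in the DKO libraries. The genotypes overlapped at both, with log2 changes of −0.12 ± 0.11 and −0.02 ± 0.12. In mean fold enrichment over the 6 libraries, 12.6 and 11.1, both lay above every member promoter other than Pcdhgc3.

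In the flank beyond the last gene, a window at 28226 bp after the start of Pcdhgc5 was higher in DKO (2.31 and 2.87 in WT replicates 1 and 3, none in WT replicate 2, and 3.06, 3.96 and 3.75 in DKO, log2 change 1.12 ± 0.36, adjusted p = 0.242 by limma, and 0.0327 without the mean-variance trend). Another at 67719 bp was listed at 4.82, 3.32 and 4.46 in WT and in DKO replicate 2 alone at 3.0 (log2 change −1.02 ± 0.40, adjusted p = 0.357 by limma). Its values in DKO replicates 1 and 3 are list ends, and with pileup the log2 change was −0.55. Both flank windows were named for a change without overlap, so that their separation is no test of a difference.

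**Figure D5:**
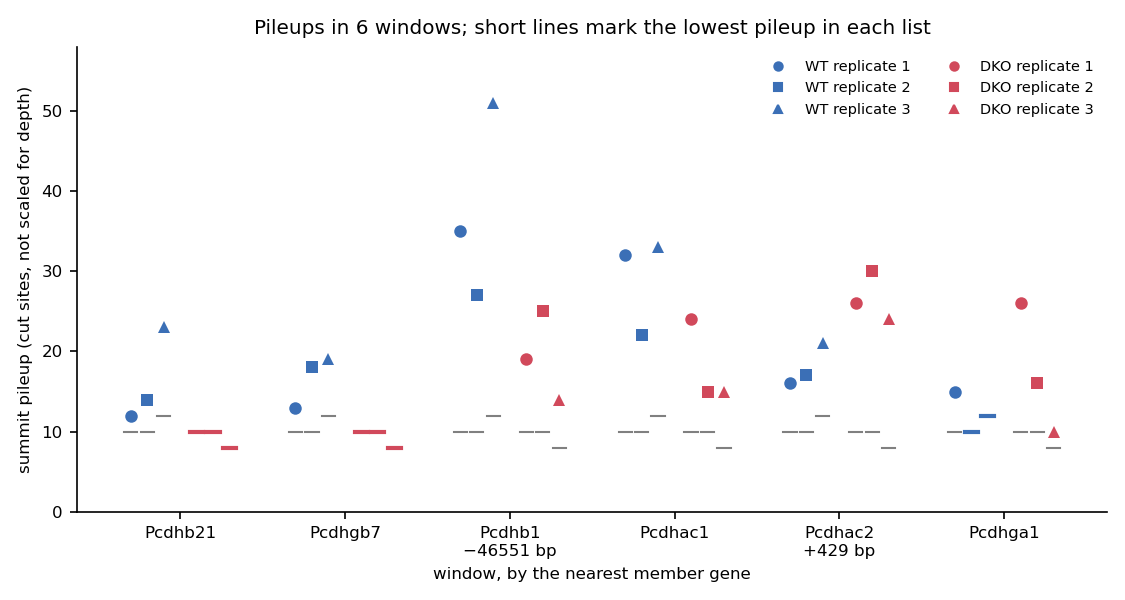
Summit pileup in cut sites, not scaled for depth, of 6 windows in 3 WT (blue) and 3 DKO (red) libraries. Short lines mark the lowest pileup of each list, in colour where the window was not listed. The DKO libraries have no summit at Pcdhb21 and Pcdhgb7, and at Pcdhac2 their pileups of 24 to 30 lie above the 16 to 21 of WT. The Pcdhb21, Pcdhgb7 and Pcdhac2 windows were named for a change without overlap, so that their separation is no test.

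The rank of a summit by p within its own list uses no fold enrichment and no scaling. It was compared for the 24 windows named by rule with a two-sided exact permutation test over the 20 assignments of 6 libraries. The smallest p this allows, 0.1, was reached at Pcdhac1, where the rank percentile was lower in DKO, with 0.4 after Benjamini-Hochberg adjustment over the 24 windows. That value rests on 5 other windows at the same p, which had been chosen for a change without overlap and whose ranks are therefore given no test. Over the 18 windows not chosen in this way the adjusted p was 0.9.

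Non-member genes inside the region served as a reference. Taf7, which encodes a subunit of the transcription factor TFIID and lies between the Pcdhb and Pcdhg genes (chr18:37640491-37644204), reached 20.4, 20.1 and 22.9 in the WT libraries and 20.7, 21.4 and 17.6 in the DKO libraries, above every clustered protocadherin. Its log2 change was 0.03 ± 0.10 (adjusted p = 0.955 by limma). Slc25a2, a mitochondrial ornithine carrier next to it, was listed in 1 library. The start of 3222401L13Rik, at −5891 bp from Pcdhga1, had 16.7, 9.82 and 16.8 in WT and 15.9, 14.3 and 16.0 in DKO. The other reference window, in the flank 57851 bp after the start of Pcdhgc5, had 17.3, 14.6 and 19.6 in WT and 15.4, 16.6 and 15.9 in DKO. The genotypes overlapped at all 3 windows. The gene models Gm42416, Gm37013 and Gm37388, which span members, were listed in 1, 0 and 0 libraries at their own starts.

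Genes known to act on the clustered protocadherins were examined at their promoters. Of 23 such genes 19 were listed in all 6 libraries and 19 had a tested window, none of which had an adjusted p under 0.05 by limma. Of the tested windows 15 were higher and 4 lower in DKO (median log2 change 0.21, against 0.07 over all protein-coding promoter windows, of which 64.6% were higher). An unadjusted p under 0.05 was found at 3 of 19 (15.8%), against 12% of all protein-coding promoter windows, a share close to that background. These 3, named after their values were seen, were Wapl, which releases cohesin from DNA, Pds5b, a cohesin-associated factor, and Smchd1, a chromatin protein known to act on clustered protocadherin expression. Their log2 changes were 0.21 ± 0.09, 0.40 ± 0.13 and 0.45 ± 0.15, with adjusted p of 0.409, 0.248 and 0.252 by limma. Ctcf itself had a log2 change of 0.02 ± 0.29. Among the 12 protocadherins outside the clusters 10 were tested, with 4 lower, 6 higher, none at an adjusted or unadjusted p under 0.05, and a median log2 change of 0.06.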

How the data were processed

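ATAC-seq libraries of 3 WT and 3 DKO preadipocyte samples at day 0 were grouped by the sample titles. Per the study's methods and the labels, the authors aligned paired-end reads to mm10 with Bowtie2 2.3.4.3, removed duplicate and mitochondrial reads, and called peaks in each library with MACS2 (version not given in the sources used here). The names of the lists give a p of 0.01 where the methods give default settings. The deposited fold enrichment is the ratio of pileup to local background with a pseudocount of 1 in both, the deposited p-values and q-values are −log10 values, and the deposited score of each peak was used for nothing but the format check. All lists stop near 300000 summits. Pileups were recovered from fold enrichment and p.

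The members, gene lists and tests were chosen with earlier results of these data known. Summits were read as peak start plus offset. Windows reaching 250 bp to either side were centred on the best ranked summits and kept with a q under 0.01 in at least 2 libraries. Log2 fold enrichment was quantile-normalized and fitted with limma 3.58.1 (R 4.3.3, lmFit, then two-sided eBayes with trend). Adjustment by Benjamini-Hochberg ran over 179249 windows, with a threshold of 0.05. The fit was tested on simulated data. No read counts were used, so depth is known only through the background level. Single rank values were compared by exact permutation tests. CTCF was searched by its consensus.

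Genes and windows were named by rule: the C-type genes, the highest 3 and the lowest of each other group by mean fold enrichment (the last of tied genes), the 3 largest changes without overlap in each direction, the 3 highest windows outside member promoters, and non-member protein-coding genes that start in the region. Others are said to be singled out. Alternatives changed the scaling, the variance model, the filters, the list length, the measure, the promoter distance and the libraries.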

Additional observations from a re-analysis of the deposited data

How the results depend on the processing

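Changes in the processing gave 425 other values for 33 results, of which 380 counted as the same. For named windows this meant the same direction and call. Counts of windows, and of members listed everywhere, had to stay within a fixed factor. Other values had to move by less than the SD between libraries. With a replicate block the fit called 0 windows of the region, as without it, and its smallest adjusted p was 0.339 by limma; over all windows it called 0 lower and 0 higher. The labels do not say whether the numbers pair the samples. The deviations of same-numbered libraries correlated at 0.0054, −0.011 and −0.0072, which cannot show whether the samples were paired. Without the mean-variance trend, limma called 2 windows of the region lower (Pcdhb21, adjusted p = 0.0136, and Pcdhgb7, adjusted p = 0.0132) and 1 higher (the flank window at 28226 bp after Pcdhgc5, adjusted p = 0.0327), while it called 2089 lower and 2047 higher over all windows. The DKO values of Pcdhb21 and Pcdhgb7 are all list ends, so that these calls rest on filled-in values. Over the other alternatives the adjusted p of Pcdhb21 and of Pcdhgb7 reached 0.339. Median centring gave 157 lower and 87 higher windows over the genome, no scaling 14 and 12, the restriction to windows listed everywhere 614 and 296, no window filter 205 and 98, the common p limit 92 and 46 and pileup 33 and 29, and neither these nor the 50000 best summits called a window of the region. Leaving out 1 library called 0 windows of the region in each case, and at most 1 elsewhere.

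The median log2 change of member windows was −0.24 with no scaling, where the median of all windows shifted to −0.14, and 0.23 with the 50000 best summits, where 1 member window was left. It ranged from −0.18 to 0.038 when 1 library was left out. With the 50000 best summits 1 member was listed in all 6 libraries, the difference in summits (DKO minus WT) was −2, and 0 windows were listed in WT only. With the common p limit 8 members were listed in all 6 libraries, the difference in listed members was −5 and that in summits −23. Counting a peak interval over 0.5 of the window left 0 windows in WT only. Windows in all WT and no DKO libraries numbered 2 to 5 when 1 library was left out, 5 without WT replicate 3 and 4 without DKO replicate 2, and those in all DKO and no WT libraries 0 to 3, with 3 without DKO replicate 2.

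Of the 24 named windows 15 kept their sign throughout, and 9 small changes turned. With no scaling the log2 change was −0.090 at Taf7, −0.043 at Pcdhgb1, −0.012 at Pcdhga11, −0.11 at Pcdhgc5 and −0.10 in the flank window at 57851 bp. It was 0.043 at Pcdha11 (ENSMUSG00000102206) with median centring, −0.0017 at Pcdhgc5 without the window filter and −0.11 there with the common p limit. With pileup it was −0.14 at Taf7, 0.032 at Pcdhga7 and −0.034 in the flank window at 57851 bp. Leaving out 1 library gave −0.25 to 0.20 at Pcdha11 (ENSMUSG00000102206), −0.0028 to 0.087 at Taf7, −0.0070 to 0.26 at Pcdhgb1, −0.25 to 0.081 at Pcdhga5, −0.19 to 0.26 at Pcdhga7, −0.26 to 0.12 at Pcdhgb6, −0.088 to 0.37 at Pcdhga11 and −0.17 to 0.17 at Pcdhgc5. None of these had an adjusted p under 0.05 by limma in any alternative. Larger changes that kept their sign also moved. With the common p limit the log2 change was −0.61 in the flank window at 67719 bp and −0.65 at Pcdhb17, with pileup −0.55 in that flank window and −0.19 in the Pcdhac2 window at −372 bp, and with no scaling 0.73 in the flank window at 28226 bp, −0.50 at Pcdhga3 and −0.54 at Pcdhb17.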
